A study of Mus musculus with 11 samples.

Results

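The genes of the synaptic vesicle release machinery were followed across neurons of 3 sensory nuclei of the newborn mouse thalamus. The 51 genes were taken by symbol from a list of presynaptic vesicle and active zone genes, and all 51 were found among the 54752 gene identifiers of the count tables. The list holds 8 genes of SNARE proteins and their partners, 16 synaptotagmins and Doc2 proteins, 3 complexins, 3 synapsins, 5 vesicle membrane proteins, 10 genes of priming and the active zone, and 6 genes of Rab proteins and an effector. After a filter on low counts 49 of the 51 were tested. Syt6 and Cplx3 were not, and reached at most 0.68 and 0.558 CPM (read counts scaled to library size) in any library.

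The libraries came from the dorsolateral geniculate nucleus (dLG, the relay of vision, 4 libraries), the ventral posteromedial nucleus (VPM, the relay of touch from the face, 4 libraries) and the ventral medial geniculate nucleus (MGv, the relay of hearing, 3 libraries). All mice were of the outbred strain ICR/CD-1, were taken on postnatal day 0 and had the genotype Gbx2CreER-IRES-EGFP/+::R26lsl-tdTomato/+. In this genotype a Cre recombinase that needs tamoxifen is made under the control of Gbx2, a transcription factor of thalamic neurons, and switches on the red protein tdTomato. Red cells were sorted from the dissected nuclei, and each library came from 4 pooled brains, so that the values describe pools and not single animals. No source used here says whether the pools were of different litters, and p-values measure the spread between these libraries.

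Synaptic vesicles fuse with the presynaptic membrane when SNARE proteins on the vesicle and on the plasma membrane zip together. Munc13 and RIM proteins prime and position the vesicles at the active zone, complexins bind the assembled SNARE complex, and synaptotagmins and Doc2 proteins sense the calcium that enters with an action potential. The relay neurons of these nuclei send glutamatergic axons to the cortex, and at birth these axons are still growing and forming synapses.

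Promoter sequences are shown for 5 members whose levels differed between nuclei, so that the letters stand beside the values that follow. They were read from a table of promoters of RefSeq genes on the build GRCm38.p6, in which 37 of the 51 members had an entry. Each runs 5′ to 3′ on the strand of the gene and ends before the gene start. Capitals mark matches on either strand to GGGCGG (the GC box, bound by Sp proteins), TGACGTCA (the cyclic AMP response element), TATAAA (the TATA box) or TTCAGCACC (the left arm of the RE1 element). Cplx1 (chr5:108550028-108550277, minus strand) and Syn1 (chrX:20921005-20921168, minus strand) were higher in VPM than in dLG, Syt9 (chr7:107370540-107370727, plus strand) was lowest in dLG, and Syt10 (chr15:89841861-89842110, minus strand) and Rab3b (chr4:108878820-108879062, plus strand) were highest in MGv.
Cplx1: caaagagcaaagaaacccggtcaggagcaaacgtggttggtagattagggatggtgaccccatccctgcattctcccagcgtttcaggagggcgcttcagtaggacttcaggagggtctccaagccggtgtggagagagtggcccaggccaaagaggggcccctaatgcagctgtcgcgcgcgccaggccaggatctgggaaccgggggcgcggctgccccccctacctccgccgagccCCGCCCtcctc
Syn1: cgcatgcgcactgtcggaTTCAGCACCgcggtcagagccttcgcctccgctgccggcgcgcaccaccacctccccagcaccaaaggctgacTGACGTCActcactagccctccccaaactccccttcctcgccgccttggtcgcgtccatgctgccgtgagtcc
Syt9: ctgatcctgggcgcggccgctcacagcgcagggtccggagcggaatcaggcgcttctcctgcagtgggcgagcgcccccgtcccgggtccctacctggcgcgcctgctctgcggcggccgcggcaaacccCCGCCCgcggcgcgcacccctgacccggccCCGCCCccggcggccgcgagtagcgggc
Syt10: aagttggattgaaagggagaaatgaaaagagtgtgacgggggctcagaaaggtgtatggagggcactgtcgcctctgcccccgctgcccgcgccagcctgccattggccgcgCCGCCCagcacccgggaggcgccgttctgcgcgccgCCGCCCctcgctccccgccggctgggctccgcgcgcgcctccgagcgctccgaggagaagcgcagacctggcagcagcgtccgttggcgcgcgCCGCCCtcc
Rab3b: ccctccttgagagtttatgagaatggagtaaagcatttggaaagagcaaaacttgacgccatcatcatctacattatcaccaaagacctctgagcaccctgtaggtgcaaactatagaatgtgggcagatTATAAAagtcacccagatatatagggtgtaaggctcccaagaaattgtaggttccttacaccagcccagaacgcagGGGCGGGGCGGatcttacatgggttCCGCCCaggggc

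The GC box was matched 1 time in the Cplx1 window, 2 times in that of Syt9 and 3 times each in those of Syt10 and Rab3b, where 2 of the 3 matches overlap each other. The Syn1 window held 1 cyclic AMP response element and 1 left arm of RE1, and the Rab3b window 1 TATA box. In windows of 250 bases before the gene start, 32.7% of all 32851 promoters held a GC box, 1.55% a cyclic AMP response element, 12.4% a TATA box and 0.301% the left arm of RE1. Of the 37 members with an entry, 28 held a GC box, 1 a cyclic AMP response element, 2 a TATA box and 1 the left arm of RE1. In the shorter window printed for Syn1, 0.444% of all promoters held the cyclic AMP response element and 0.207% the left arm of RE1. A match describes the letters and is not a binding site.

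Library totals ranged from 10.2 to 23.6 M counts per library and were lowest in the MGv libraries, and 3 counts corresponded to 0.129 to 0.292 CPM. The relay neuron list (Gbx2, Lef1, Tcf7l2, Rora, Slc17a6, Lhx2) summed to between 1742 and 2948 CPM and the general neuron list to between 13320 and 18580 CPM, whereas the GABAergic list stayed between 0.382 and 4.85 CPM. In 3 libraries, dLG 2, VPM 3 and MGv 1, the heat shock cognate gene Hspa8 lay between 3.05 and 5.56 CPM, against 159 to 581 CPM in the other 8. VPM 3 also had the lowest value of the 4 VPM libraries for 31 of the 49 members, with a median log2 difference of -0.26 from the others. This position was not counted over all genes, so it is not shown to be particular to the members. The library scaling factor (TMM) of VPM 3 was 0.854, against 0.982 to 1.06 in the other libraries. Counts below are therefore also given without these 3 libraries.

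Genes of the release machinery were transcribed at birth in all 3 nuclei, at levels that ranged widely. The median of the 49 tested members had a mean over the libraries of 61.5 CPM, against 14.1 CPM for all 15907 genes tested. These medians are not scaled to gene length. Some members were scarce, as Syt2 (1.05 to 3.7 CPM) and Syt12 (0.062 to 1.55 CPM). The 51 genes together took between 0.62% and 0.865% of the counts of a library. Single genes were compared with each other as CPM per kb of exon length, which counts every annotated exon and so understates genes with many alternative exons. On this scale the leading members of the 7 roles were Rab3a (352 CPM per kb, mean of 11 libraries), Snap47 (261), Syt5 (162), Syn1 (72.3), Cplx1 (62.6), Sv2a (39.4) and Rims2 (22.5).

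**Figure D1:**
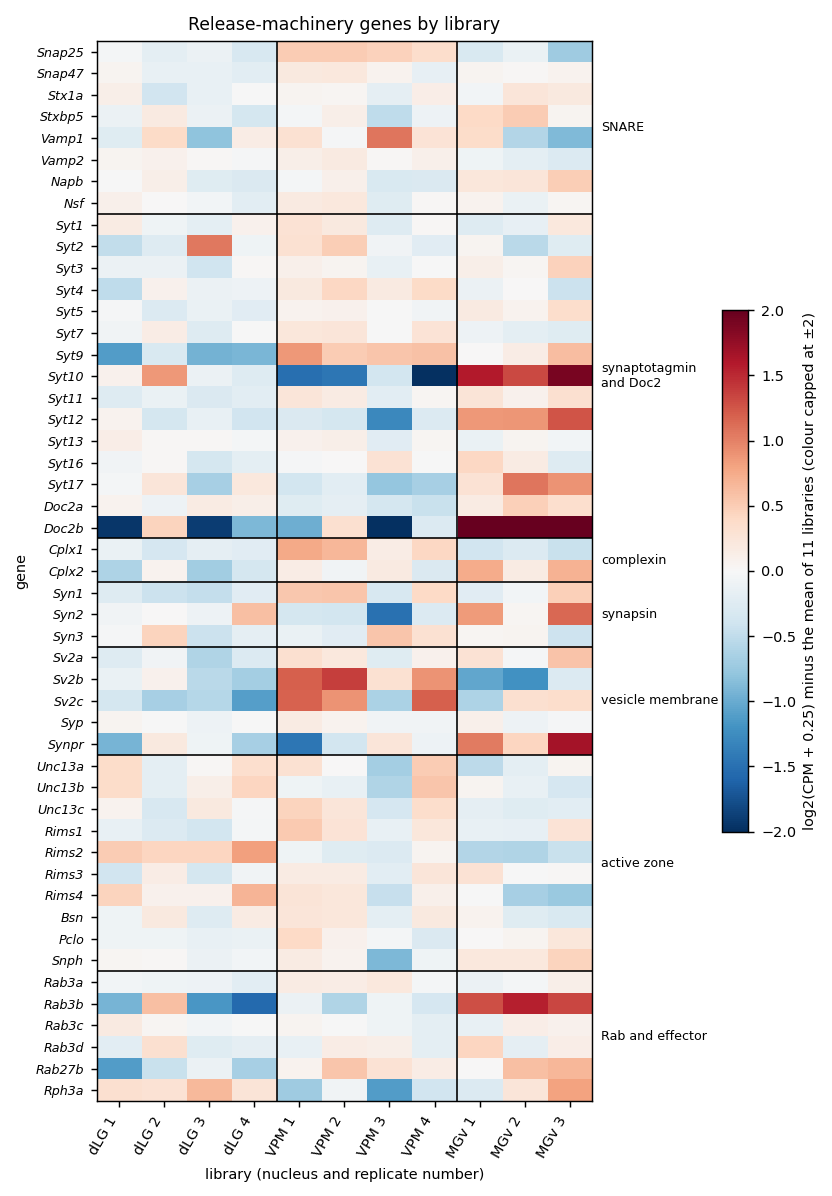
Level of the 49 tested genes (rows, grouped by role) in the 11 libraries (columns, named by nucleus and replicate number), as log2(CPM + 0.25) minus the gene's mean over the libraries, with colour capped at ±2. Doc2b, Rab3b and Syt10 are darkest red in the MGv columns, Rims2 is red in dLG, and Snap25, Cplx1, Sv2b and Sv2c are red in most VPM columns.

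By edgeR's quasi-likelihood test, 23 of the 49 members differed among the nuclei at an adjusted p under 0.1 (46.9%), against 24.2% of all genes tested. The changes of the members were not larger in size. Their median absolute log2 fold change was 0.224 for dLG against VPM, 0.323 for dLG against MGv and 0.363 for VPM against MGv. Over all genes it was 0.271, 0.324 and 0.362. The members were also more abundant (median 61.5 CPM, against 14.1 CPM), and the part of level in the calls was not tested. Between dLG and VPM 11 members passed, where 10.7% of all genes did. Of these, 3 were higher in dLG (6.12% of members, against 4.97% of all genes) and 8 in VPM (16.3% against 5.74%). Between dLG and MGv 13 members passed, where 16.1% of all genes did, with 2 higher in dLG (4.08% against 8.61%) and 11 in MGv (22.4% against 7.49%). Between VPM and MGv 16 members passed, where 19% of all genes did, with 5 higher in VPM (10.2% against 10.4%) and 11 in MGv (22.4% against 8.56%). The members' share thus stood above that of all genes for genes higher in VPM than dLG and for genes higher in MGv than either other nucleus, and near or below it in the opposite directions, of which genes higher in VPM than MGv depended on the setting, as given below. The contrasts share libraries and are not independent of each other. The members were chosen with earlier results of these data known, so the shares describe this list and are not an independent test of it. Each library holds the pooled RNA of many sorted cells, so that fewer cells of a type and less RNA per cell cannot be told apart.

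Over the members, the median log2 fold change was -0.14 for dLG against VPM, -0.21 for dLG against MGv and 0.03 for VPM against MGv, and over all genes tested it was between 0.00 and 0.02. Without dLG 2, VPM 3 and MGv 1 the calls were 18 between dLG and VPM (4 higher in dLG, 14 in VPM), 16 between dLG and MGv (2 and 14) and 23 between VPM and MGv (12 higher in VPM, 11 in MGv), where 16.1%, 19.8% and 19.0% of all genes passed. Leaving out VPM 3 alone gave 15 (3 and 12), 17 (2 and 15) and 21 (10 and 11) calls, and the share of all genes also rose, to 14.1%, 20.9% and 20.4%. With libraries scaled by their totals the median of all genes moved to 0.10 for dLG against VPM, and the split of calls was 4 higher in dLG and 6 in VPM. Of all genes, 6.76% were then called higher in dLG and 4.31% in VPM. Members higher in VPM than MGv numbered between 3 and 14 over the alternative fits at this threshold. They were 3 of 49 with total-count scaling (6.12%, against 8.73% of all genes), 12 without the 3 libraries (24.5% against 9.92%), 10 without VPM 3 (20.4% against 10.8%) and 14 with limma voom and quality weights (28.6% against 12.9%). Over the 3 contrasts 24 members passed at least once and 25 of the tested members in none. The share of all genes that passed at least once was not counted. The nearest value is that for any difference among the nuclei, 46.9% of the members against 24.2% of all genes. The counts by role and by pattern below describe the members only.

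**Figure D2:**
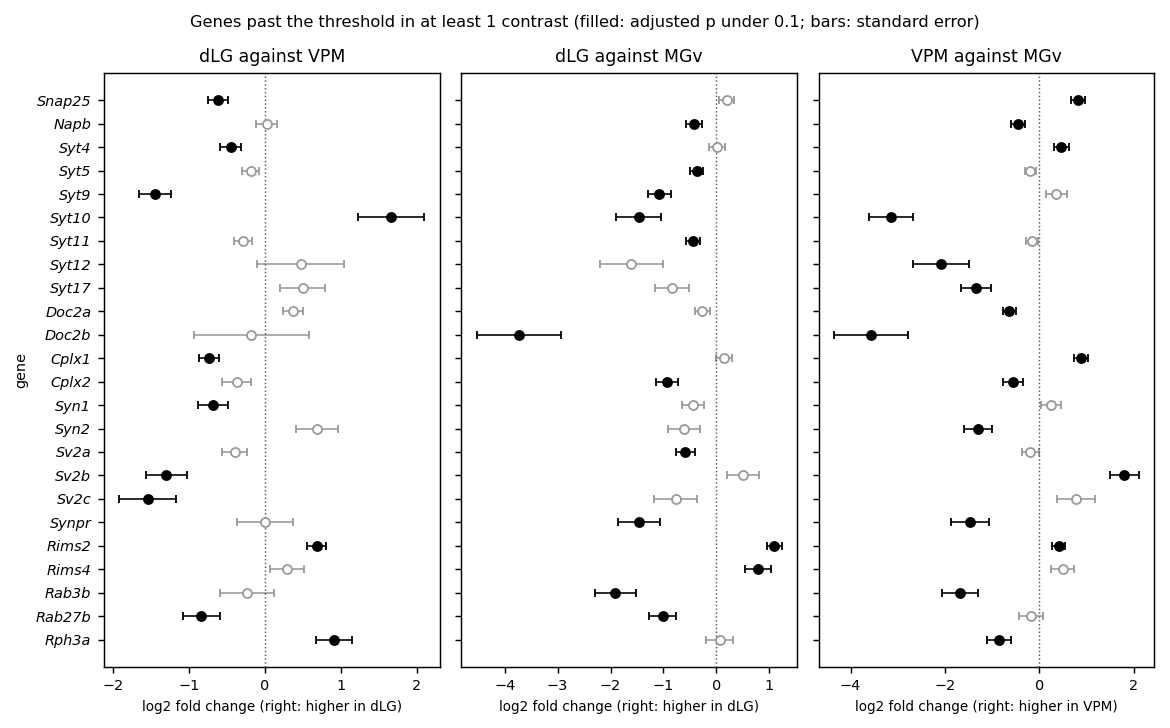
Log2 fold changes (points) with standard errors (bars) of the 24 genes that passed in at least 1 contrast, with 1 panel for each pair of nuclei; filled points have an adjusted p under 0.1. Most filled points lie to the left in the first 2 panels, towards higher levels in VPM and MGv, with Rims2 to the right in all 3 panels.

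Among the SNARE proteins and their partners, 2 of 8 genes passed. Snap25 (ENSMUSG00000027273, chr2:136713453-136782428 on GRCm38, as are the positions below) encodes the plasma membrane SNARE that supplies a pair of helices to the fusion complex. It stood at 339, 304, 319.9 and 276 CPM in dLG 1 to 4, at 493, 491, 477 and 441 CPM in VPM 1 to 4 and at 282, 318 and 211 CPM in MGv 1 to 3. No dLG or MGv library reached the lowest VPM value, and dLG and MGv overlapped. The log2 fold change, given here and below for the first nucleus against the second with its standard error, was -0.62 ± 0.13, adjusted p = 0.0107 for dLG against VPM and 0.81 ± 0.15, adjusted p = 0.00231 for VPM against MGv. Napb, which encodes beta-SNAP, the adaptor that brings the ATPase NSF to used SNARE complexes, was highest in MGv, at 495, 499.7 and 596 CPM, against 348 to 459 CPM in dLG and 344 to 453 CPM in VPM. Its log2 fold change was -0.42 ± 0.15, adjusted p = 0.0838 for dLG against MGv and -0.45 ± 0.15, adjusted p = 0.0603 for VPM against MGv. The Napb calls were lost when any of dLG 1, dLG 3, dLG 4, VPM 1 or the 3 MGv libraries was left out for dLG against MGv (adjusted p = 0.107 to 0.286), and when MGv 1, MGv 3, VPM 1 or VPM 4 was left out for VPM against MGv (adjusted p = 0.1003 to 0.228).

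The other SNARE genes did not pass in any contrast. Snap47, a relative of SNAP-25 that also sits on internal membranes, was the most abundant of the group per kb. Its CPM were 718, 621, 624 and 592 in dLG, 789.6, 793, 723 and 613 in VPM and 713, 702 and 719 in MGv, and the nuclei overlapped. An exon overlap with Jmjd4 on the opposite strand covers 11.6% of its exons, and whether the counting used strand was not given. Stx1a, the plasma membrane syntaxin, ranged over 178 to 274 CPM, Nsf over 190 to 261 CPM and Stxbp5, encoding the SNARE inhibitor tomosyn, over 6.26 to 12.9 CPM. Of the vesicle SNAREs Vamp2 made up between 96.4% and 99.0% of the pair Vamp1 and Vamp2 per kb in every library. Vamp2 was 397, 403, 387 and 375 CPM in dLG, 412, 429, 386 and 408 CPM in VPM and 359, 334 and 314 CPM in MGv, all MGv values being the lowest, with log2 fold changes of 0.22 ± 0.11, adjusted p = 0.241 and 0.28 ± 0.11, adjusted p = 0.106 against MGv. Vamp1 was 15.3, 23.9, 10.3 and 20.2 CPM in dLG, 22.5, 17.9, 38.4 and 22.2 CPM in VPM and 23.7, 12 and 9.82 CPM in MGv, with full overlap. Snap25 supplied 15.9% ± 0.569 (SD) of the Snap25 and Snap47 level per kb in dLG, 20.4% ± 1.13 in VPM and 12.9% ± 2.41 in MGv.

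Of the 16 synaptotagmins and Doc2 proteins, 9 passed in at least 1 contrast. Some of the group sense calcium and others do not bind it, and the main fast sensor was not among the 9. Syt1, which triggers synchronous release, ranged over 862 to 1257 CPM, and its relative Syt2, the fast sensor of many hindbrain and inhibitory synapses, over 1.05 to 3.7 CPM. Syt1 made up over 99.5% of the pair in each library.

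Syt9, another fast calcium sensor, was lowest in dLG. Its CPM were 8.71, 15.5, 9.81 and 10.1 in dLG, 35.4, 27.3, 28.4 and 29 in VPM and 19.4, 21.2 and 29.4 in MGv. All dLG libraries were below all others, while VPM and MGv overlapped. The log2 fold change was -1.44 ± 0.21, adjusted p = 0.000707 for dLG against VPM and -1.08 ± 0.22, adjusted p = 0.00539 for dLG against MGv.

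Syt10 (ENSMUSG00000063260, chr15:89782393-89841860), a calcium sensor known from the release of growth factor in olfactory neurons, differed in all 3 contrasts. It was 2.74, 4.9, 2.34 and 2.1 CPM in dLG, 0.742, 0.779, 1.92 and 0.428 CPM in VPM and 8.19, 6.76 and 10.3 CPM in MGv, without overlap between any of the nuclei. Log2 fold changes were 1.67 ± 0.43, adjusted p = 0.0316 for dLG against VPM, -1.47 ± 0.43, adjusted p = 0.0408 for dLG against MGv and -3.14 ± 0.46, adjusted p = 0.00052 for VPM against MGv. The dLG against VPM call was lost without VPM 1 (adjusted p = 0.105) and the dLG against MGv call without dLG 1, dLG 3, dLG 4 or MGv 3 (adjusted p = 0.102 to 0.145).

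Doc2b (ENSMUSG00000020848, chr11:75768966-75796049), a high-affinity calcium sensor linked to spontaneous and asynchronous release, had the largest fitted fold change of the members. It was 0.304, 2.66, 0.327 and 0.907 CPM in dLG, 0.834, 2.42, 0 and 1.52 CPM in VPM and 14.5, 15.7 and 13.3 CPM in MGv. All 3 MGv libraries lay above 13 CPM and no other library above 3 CPM. The log2 differences were -3.74 ± 0.79, adjusted p = 0.00638 for dLG against MGv and -3.56 ± 0.79, adjusted p = 0.00881 for VPM against MGv. Doc2a, its paralogue, differed less, with 37, 32.9, 39.6 and 38.3 CPM in dLG, 29.7, 31.1, 27.5 and 25.9 CPM in VPM and 39.8, 48.9 and 44.5 CPM in MGv. The 3 nuclei did not overlap for Doc2a, but only VPM against MGv passed (-0.64 ± 0.14, adjusted p = 0.00896). Exons of Ino80e on the opposite strand cover 39.4% of the Doc2a exons. Per kb, Doc2b made up 1.88% ± 2.1 (SD) of the Doc2 pair in dLG, 2.55% ± 2.1 in VPM and 17.4% ± 1.46 in MGv.

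A pair of scarce synaptotagmins was highest in MGv. Syt17, which lacks the membrane anchor of its relatives, was 3.65, 4.51, 2.29 and 4.39 CPM in dLG, 2.87, 3.2, 2.11 and 2.28 CPM in VPM and 4.66, 8.16 and 7.19 CPM in MGv, the latter above all others (-1.34 ± 0.32, adjusted p = 0.0131 for VPM against MGv). Syt12, a synaptotagmin that does not bind calcium, was 0.548, 0.344, 0.436 and 0.334 CPM in dLG, 0.371, 0.346, 0.062 and 0.38 CPM in VPM and 1.13, 1.14 and 1.55 CPM in MGv, with the MGv libraries again above the others (-2.08 ± 0.60, adjusted p = 0.0354 for VPM against MGv). The Syt12 call was lost without MGv 3 (adjusted p = 0.115), with no count filter (0.129) and on thinning counts to the smallest total (0.2045). Its highest count in a library was 16, and an antisense transcript covers 17.2% of its exons. Neither gene passed for dLG against MGv.

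Of the abundant genes of the group, Syt4, a synaptotagmin of the trafficking of dense core vesicles, was higher in VPM than in both other nuclei. It was 135, 203, 177 and 179.5 CPM in dLG, 222, 257, 218 and 252 CPM in VPM and 178, 194 and 142 CPM in MGv, with all VPM libraries above the rest. On the log2 scale the differences were -0.45 ± 0.14, adjusted p = 0.0794 for dLG against VPM and 0.47 ± 0.16, adjusted p = 0.0668 for VPM against MGv. These calls were lost when 1 of several libraries was left out, with adjusted p = 0.11 to 0.211 for dLG against VPM (dLG 1, dLG 3, dLG 4, VPM 1, VPM 2 or VPM 4) and 0.124 to 0.238 for VPM against MGv (VPM 2, VPM 4, MGv 1 or MGv 3), and also with total-count scaling.

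Syt5, a sensor of dense core and synaptic vesicles and the most abundant of the group per kb, was 377, 315, 348 and 326 CPM in dLG, 402, 408, 380 and 363 CPM in VPM and 432, 404 and 489 CPM in MGv. The dLG libraries were all below those of MGv (-0.37 ± 0.12, adjusted p = 0.0595), a call lost without dLG 2, dLG 3, dLG 4, MGv 1 or MGv 3 (adjusted p = 0.105 to 0.212). Syt11, which does not bind calcium and restrains vesicle retrieval, was likewise lower in dLG, at 289.6 to 324 CPM, than in MGv, at 376 to 442 CPM (-0.44 ± 0.13, adjusted p = 0.0398), a call lost without dLG 1, MGv 1 or MGv 3 (adjusted p = 0.1002 to 0.14). The 6 tested genes of the group that passed in no contrast were Syt1, Syt2, Syt3, Syt7, Syt13 and Syt16. Of these, Syt3 and Syt7, the slow high-affinity sensors, ranged over 45 to 82.2 CPM and 31.2 to 45 CPM.

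The complexins differed in opposite directions. Cplx1 was higher in VPM and Cplx2 in MGv. Cplx1 (ENSMUSG00000033615, chr5:108518554-108550024) was 119.7, 104, 115 and 112 CPM in dLG, 222, 208, 145 and 176 CPM in VPM and 100.5, 109 and 96.4 CPM in MGv, all VPM libraries being above all others. Fitted changes (log2) were -0.73 ± 0.14, adjusted p = 0.00444 for dLG against VPM and 0.88 ± 0.15, adjusted p = 0.00166 for VPM against MGv, and no alternative fit at this threshold ended these calls. Cplx2 was 30.3, 48.9, 28.8 and 36.5 CPM in dLG, 51.5, 44.1, 53 and 38.2 CPM in VPM and 78.1, 52.4 and 75.7 CPM in MGv. All MGv libraries exceeded the dLG libraries, and VPM 3 slightly exceeded the lowest MGv library. The log2 fold change was -0.93 ± 0.21, adjusted p = 0.00852 for dLG against MGv and -0.56 ± 0.21, adjusted p = 0.0935 for VPM against MGv. The VPM against MGv call was lost in 11 of 25 alternatives, among them leaving out dLG 1, dLG 4, VPM 1, VPM 2, VPM 4, MGv 1 or MGv 3 (adjusted p = 0.114 to 0.273). Per kb, Cplx2 formed 12.5% ± 3.37 (SD) of the complexins in dLG, 10.2% ± 2.54 in VPM and 23% ± 4.68 in MGv, and Cplx3 at most 0.245% in any library.

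**Figure D3:**
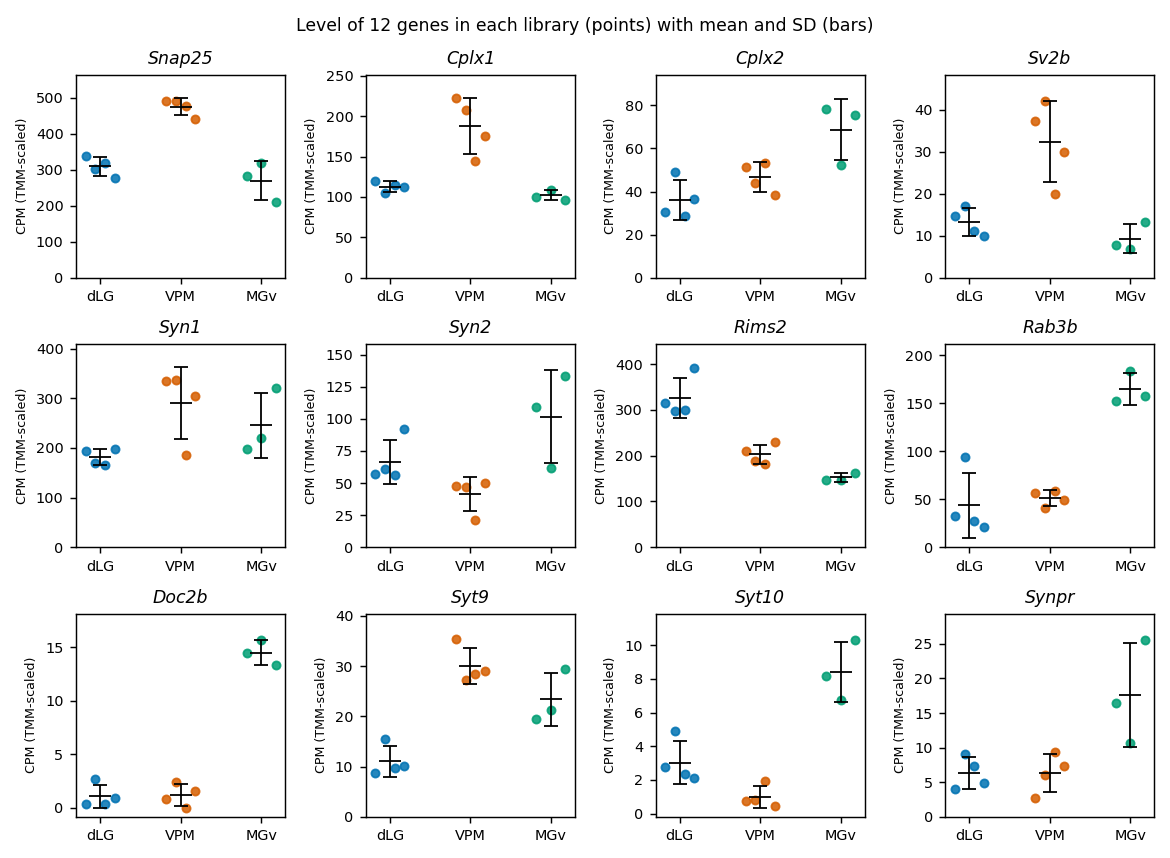
CPM of 12 genes in each library (points), with the mean and SD of each nucleus (black bars), on linear axes. Rims2 is highest in dLG, Snap25, Cplx1 and Sv2b are highest in VPM, Syt9 is lowest in dLG, and Rab3b, Doc2b, Syt10, Synpr and Cplx2 have their highest means in MGv.

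Synapsins tether vesicles to one another and to actin in the reserve pool. Syn1 was 193, 170, 165 and 197 CPM in dLG, 335, 337, 185 and 304 CPM in VPM and 197, 220 and 320.5 CPM in MGv. Apart from VPM 3, which lay within the dLG range, the VPM libraries exceeded those of dLG (-0.68 ± 0.19, adjusted p = 0.0493 for dLG against VPM). That call was lost when VPM 1, VPM 2 or dLG 3 was left out (adjusted p = 0.122 to 0.15) and with total-count scaling. Syn2 was 57.3, 60.8, 56.5 and 92.2 CPM in dLG, 47.4, 46.7, 21.3 and 50.03 CPM in VPM and 109, 62 and 134 CPM in MGv. Every VPM library was below every other library, and the VPM against MGv difference passed (-1.29 ± 0.30, adjusted p = 0.0113), while that of dLG against VPM did not (0.69 ± 0.28, adjusted p = 0.174). Syn3 was scarce, at 5.23 to 10.6 CPM, and did not pass in any contrast. Exons of Timp3, on the opposite strand, cover 14.1% of its exons. Per kb, Syn2 made up 14.5% ± 2.42 (SD) of the synapsins in dLG, 6.11% ± 0.839 in VPM and 16.1% ± 4.44 in MGv.

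Of the 5 vesicle membrane proteins, 4 passed in some contrast. SV2 proteins are vesicle glycoproteins, and SV2A is the target of the antiepileptic levetiracetam. Sv2a was 149, 169.8, 118 and 148 CPM in dLG, 223, 206, 151 and 189 CPM in VPM and 217, 175 and 265 CPM in MGv. All MGv libraries were above all dLG libraries (-0.58 ± 0.18, adjusted p = 0.0451), a call lost without dLG 3, MGv 1 or MGv 3 (adjusted p = 0.105 to 0.22).

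Sv2b showed the reverse placement of MGv. It was 14.7, 17.1, 11 and 9.93 CPM in dLG, 37.2, 42.2, 19.97 and 30.1 CPM in VPM and 7.74, 6.85 and 13.3 CPM in MGv, with all VPM libraries above all others. Log2 fold changes were -1.29 ± 0.27, adjusted p = 0.00961 for dLG against VPM and 1.80 ± 0.31, adjusted p = 0.0018 for VPM against MGv. Sv2c was 4.26, 3.39, 3.65 and 2.43 CPM in dLG, 12.8, 10.5, 3.47 and 13 CPM in VPM and 3.53, 6.93 and 7.09 CPM in MGv. Its VPM libraries exceeded those of dLG apart from VPM 3, which lay among them (-1.54 ± 0.38, adjusted p = 0.0232 for dLG against VPM).

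Synaptophysin (Syp), a tetraspan protein of nearly all synaptic vesicles, was nearly level, at 90.6 to 108 CPM in all 11 libraries, and log2 fold changes were between -0.03 and 0.03. Its relative synaptoporin (Synpr) was 4.02, 9.07, 7.41 and 4.87 CPM in dLG, 2.73, 6.06, 9.37 and 7.28 CPM in VPM and 16.4, 10.6 and 25.6 CPM in MGv, with the MGv libraries above all others. The log2 differences were -1.46 ± 0.40, adjusted p = 0.0278 for dLG against MGv and -1.47 ± 0.40, adjusted p = 0.027 for VPM against MGv, and the calls were lost without MGv 3 (adjusted p = 0.164 and 0.151). Synpr made up 3.52% ± 1.3 (SD) of the pair per kb in dLG, 3.51% ± 1.67 in VPM and 8.98% ± 3.48 in MGv. Within the SV2 family Sv2b formed 4.69% ± 0.771 in dLG, 8.2% ± 1.33 in VPM and 2.22% ± 0.399 in MGv.

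Of the 10 active zone and priming genes 2 passed, both RIM genes. RIM proteins hold calcium channels and Rab3 at the release site. Rims2 (ENSMUSG00000037386, chr15:39198261-39684372) was 316, 298, 300.2 and 391 CPM in dLG, 210.4, 188, 183 and 229.7 CPM in VPM and 148, 146 and 163 CPM in MGv. All 3 nuclei were separate, with dLG highest and MGv lowest. On the log2 scale the differences were 0.69 ± 0.13, adjusted p = 0.00403 for dLG against VPM, 1.10 ± 0.14, adjusted p = 0.00015 for dLG against MGv and 0.41 ± 0.14, adjusted p = 0.0645 for VPM against MGv. The last call was lost without VPM 1, VPM 4, MGv 1 or MGv 2 (adjusted p = 0.108 to 0.158) and with total-count scaling, while the other 2 were kept in all alternative fits. Rims4, a short RIM with only the C-terminal domain, was 33.3, 25.7, 25.8 and 39.1 CPM in dLG, 29.1, 28.4, 17.6 and 26 CPM in VPM and 24, 15.3 and 14.4 CPM in MGv. All dLG libraries were above MGv (0.79 ± 0.24, adjusted p = 0.0514), a call lost without dLG 1, dLG 4, MGv 2 or MGv 3 (adjusted p = 0.111 to 0.202). Rims1 and Rims3 did not pass. Rims1 was 54.5, 49.7, 47 and 58.6 CPM in dLG, 86.8, 73.1, 54.5 and 71 CPM in VPM and 54.5, 53.8 and 73 CPM in MGv, with overlap. Per kb, Rims2 made up 59.9% ± 1.83 (SD) of the RIM genes in dLG, 45.1% ± 3.42 in VPM and 41.3% ± 2.27 in MGv, and Rims1 13.6% ± 0.662, 22.2% ± 2.08 and 23% ± 3.37.

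The Munc13 genes, which prime vesicles for fusion, did not pass. Unc13a ranged over 22 to 50.5 CPM, Unc13b over 9.8 to 22 CPM and Unc13c over 87.1 to 150.3 CPM, and Unc13c made up 73.7% to 82.0% of the family per kb. The giant scaffolds Bsn and Pclo ranged over 31.2 to 45.4 and 59.8 to 96.3 CPM. Snph, a syntaxin-binding protein that also anchors axonal mitochondria, ranged over 15.8 to 40.6 CPM, and Rims3 over 51.7 to 82.3 CPM.

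Rab3 proteins mark synaptic vesicles and bind RIM and rabphilin. Rab3a, the main neuronal form, was 752, 736, 730.4 and 677 CPM in dLG, 873, 867, 900.1 and 763 CPM in VPM and 718, 755 and 842 CPM in MGv. The dLG libraries were all below VPM, but the difference did not pass (-0.23 ± 0.11, adjusted p = 0.233). Rab3b (ENSMUSG00000003411, chr4:108879063-108943324) was 32.4, 94.1, 27.5 and 21.1 CPM in dLG, 57, 41, 58.7 and 49 CPM in VPM and 153, 184 and 157 CPM in MGv. Every MGv library was above every other, and within dLG the library dLG 2 stood well above the remaining 3. Fitted changes (log2) were -1.91 ± 0.38, adjusted p = 0.00459 for dLG against MGv and -1.68 ± 0.38, adjusted p = 0.0107 for VPM against MGv, and no alternative fit ended the calls. An antisense transcript covers 9.0% of the Rab3b exons. Per kb, Rab3b made up 3.45% ± 2.49 (SD) of the Rab3 genes in dLG, 3.56% ± 0.508 in VPM and 11.5% ± 1.34 in MGv, and Rab3a the most in every library. Rab3c, at 79 to 102 CPM, and Rab3d, at 20.5 to 32.9 CPM, did not pass.

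Rab27b, a Rab of secretory and synaptic vesicles, was 5.11, 8.38, 10.6 and 7.11 CPM in dLG, 12, 16.8, 14 and 12.8 CPM in VPM and 11.5, 17.6 and 18.4 CPM in MGv, all dLG libraries lying below all others. Log2 fold changes were -0.83 ± 0.24, adjusted p = 0.0494 for dLG against VPM, a call lost without dLG 1, dLG 4 or VPM 2 (adjusted p = 0.13 to 0.155), and -1.02 ± 0.26, adjusted p = 0.0182 for dLG against MGv. Rabphilin (Rph3a), an effector of Rab3 and Rab27, was 49.6, 48.8, 62.7 and 47.8 CPM in dLG, 24.3, 37.8, 18.2 and 30.4 CPM in VPM and 32.9, 47.4 and 69.6 CPM in MGv. It was lowest in VPM on average, and all VPM libraries were below all dLG libraries, with overlap with MGv. The log2 differences were 0.91 ± 0.24, adjusted p = 0.0336 for dLG against VPM and -0.85 ± 0.26, adjusted p = 0.0456 for VPM against MGv. The first call was lost without VPM 1 (adjusted p = 0.107) and the second without VPM 1 or MGv 3 (adjusted p = 0.109 and 0.262).

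**Figure D4:**
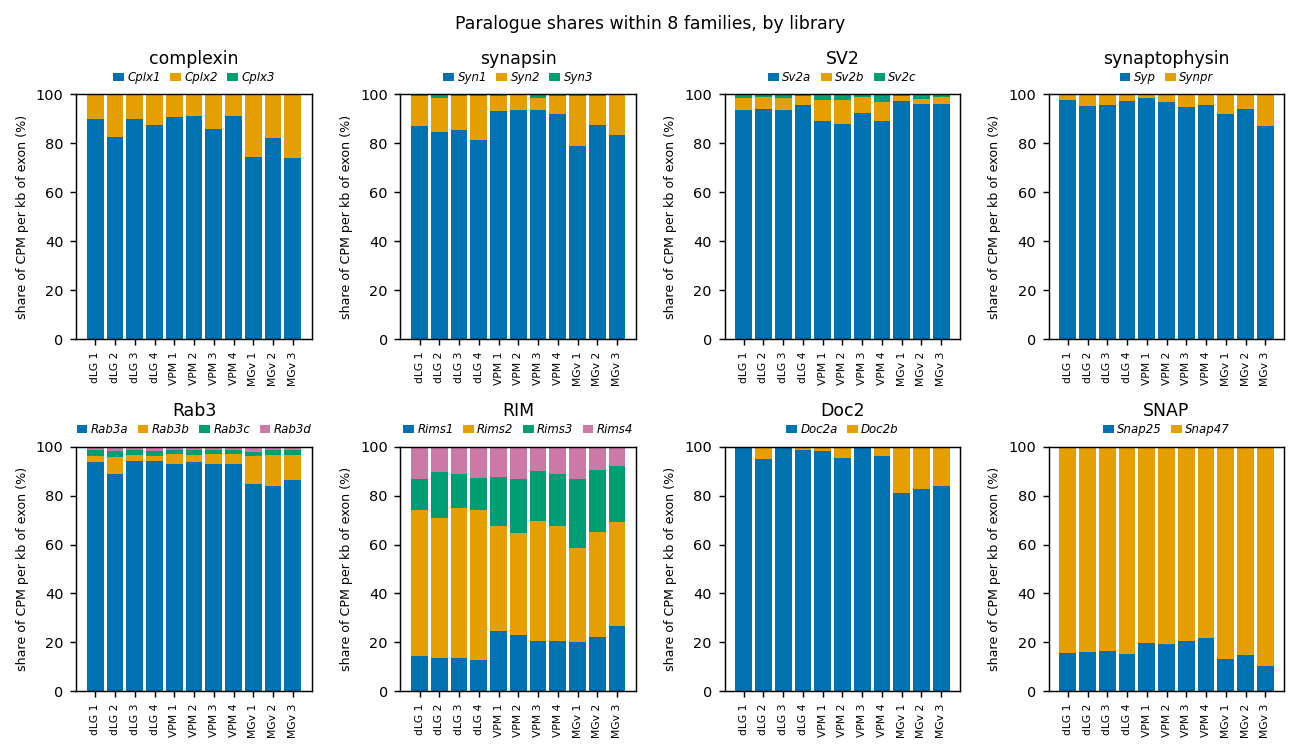
Share of each paralogue in the summed CPM per kb of exon of its family (stacked bars, percent) for 8 families in the 11 libraries, named by nucleus and replicate number. Rab3b, Doc2b, Cplx2 and Synpr take larger shares in the MGv libraries, Rims2 in the dLG libraries, and Snap25 and Sv2b in the VPM libraries.

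Grouped by pattern, 6 members were higher in MGv than in both other nuclei (Napb, Syt10, Doc2b, Cplx2, Synpr and Rab3b) and 4 higher in VPM than in both (Snap25, Syt4, Cplx1 and Sv2b). Rims2 was higher in dLG than in both, Syt9 and Rab27b were lower in dLG than in both, and Rph3a was lower in VPM than in both, as was Syt10. The remaining 10 of the 24 passed in a single contrast. These patterns were not counted over all genes. Of the 40 member-and-contrast calls, 21 were kept in every alternative fit at this threshold in which the gene was tested, 19 were lost in at least 1 and none changed direction.

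Markers of other cells were summed as well. The oligodendrocyte lineage list (5 genes) summed to 12.5 to 30.2 CPM in dLG, 32.8 to 43.4 CPM in VPM and 74.9 to 85.9 CPM in MGv, mostly through Mbp, and its defining genes Pdgfra, Olig1 and Olig2 stayed under 5 CPM. Slc1a3, an astrocyte and radial glia gene, was 45.5 to 90.3 CPM in MGv and at most 17.9 CPM elsewhere, whereas the astrocyte list (6 genes) summed to 48.8 to 134 CPM in dLG, 55.9 to 118 CPM in VPM and 59.6 to 174 CPM in MGv, with Aqp4, Gja1 and Gfap under 5 CPM. Gbx2, which also drives the Cre of the sorted reporter, was 272 to 333 CPM in MGv, 27.3 to 45.7 CPM in VPM and 14.2 to 51.6 CPM in dLG. Of the relay list, Tcf7l2 and Lhx2 were also highest in MGv. Lef1 was lower in MGv (153 to 209 CPM, against 260 to 388 CPM elsewhere). Rora (472 to 590 against 560 to 1581) and Slc17a6 (278 to 442 against 414 to 642) were mostly lower. Of the neuron list, Rbfox3 was higher in MGv, and Nefl (698.5 to 793 CPM against 1222 to 2413) and Nefm (254 to 327 against 491 to 1476) were lower. The part of these genes in the 6 members higher in MGv was not tested. Of the 3 libraries low in Hspa8, dLG 2 had the highest dLG value for 6 of these 6 members, VPM 3 the highest VPM value for 4 and MGv 1 the highest MGv value for 1. Over all 49 tested members, these libraries were the highest of their nucleus for 21, 8 and 14. These positions were not counted over all genes. Within dLG, dLG 2 was also highest for Gbx2 (51.6 CPM against 14.2 to 29.4 CPM), Mbp (20.1 against 5.25 to 8.34) and Slc1a3 (17.9 against 1.1 to 4.63). Leaving out dLG 2 ended 1 of the 40 calls, that of Syt5 for dLG against MGv (adjusted p = 0.114).

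The other genes of the presynaptic pathway, 84 further genes of which 83 were found and 73 tested, were counted in the same fit. Their list, too, was chosen with earlier results of these data known. Between dLG and VPM 11 passed (6 higher in dLG, 5 in VPM), between dLG and MGv 15 (4 and 11) and between VPM and MGv 19 (6 and 13), and 23 differed among the nuclei. These were 15.1%, 20.55%, 26.0% and 31.5% of the 73, against 10.7%, 16.1%, 19.0% and 24.2% of all genes. Those higher in MGv made up 15.1% and 17.8% of the 73, against 7.49% and 8.56% of all genes. Between dLG and VPM, 8.22% were higher in dLG (4.97% of all genes) and 6.85% in VPM (5.74%). Those higher in dLG than MGv were 5.48% (8.61% of all genes), and those higher in VPM than MGv 8.22% (10.4%). Without dLG 2, VPM 3 and MGv 1 the counts were 20 (5 and 15), 18 (4 and 14) and 23 (7 and 16), where 16.1%, 19.8% and 19.0% of all genes passed. Of 7 genes that passed with an absolute log2 fold change of at least 1 and at least 10 CPM on average in the nucleus where they were higher, the 6 with the largest changes are described.

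Stxbp6, encoding the SNARE-binding protein amisyn, was 105, 64.4, 66.8 and 86.9 CPM in dLG, 239, 223, 159 and 191 CPM in VPM and 15.6, 17 and 41 CPM in MGv, with the 3 nuclei separate (-1.33 ± 0.27, adjusted p = 0.00772 for dLG against VPM and 3.05 ± 0.33, adjusted p = 3.89e-05 for VPM against MGv). Stxbp4, which encodes a syntaxin-binding protein, was highest in dLG, at 56.4, 42.5, 67.6 and 79.1 CPM, against 19.7 to 31 CPM in VPM and 13.4 to 21.5 CPM in MGv (1.32 ± 0.21, adjusted p = 0.00168 for dLG against VPM and 1.88 ± 0.24, adjusted p = 0.000185 for dLG against MGv). Baiap3, a relative of Munc13 of dense core vesicle traffic, was 8.04, 14 and 12.7 CPM in MGv and 0.744 to 3.14 CPM elsewhere (-2.94 ± 0.39, adjusted p = 0.000205 for dLG against MGv). Sncb, encoding beta-synuclein, was highest in VPM, at 70.9, 73.5, 71.1 and 95.5 CPM, and 29.4 to 54.2 CPM elsewhere (-1.0 ± 0.19, adjusted p = 0.00575 for dLG against VPM and 1.22 ± 0.22, adjusted p = 0.00218 for VPM against MGv). Svop, a vesicle protein related to SV2, was 134, 144 and 136 CPM in MGv, above all others (-1.09 ± 0.17, adjusted p = 0.000629 for dLG against MGv), and Lin7a, an adaptor of the presynaptic scaffold, was lowest in dLG, at 26.1, 22.8, 24.1 and 20.5 CPM, against 27.1 to 67 CPM elsewhere (-1.05 ± 0.23, adjusted p = 0.00687 for dLG against MGv).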

How the data were processed

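According to the labels and methods, RNA of sorted neurons was amplified with a SMARTer v4 kit and sequenced as single-end reads of 50 bases. The authors trimmed the reads, aligned them with STAR 2.7.0d to mm10 (GRCm38), counted them per Ensembl gene with featureCounts (Subread 1.6.4), and deposited raw counts for each library. The use of strand and the handling of reads with several alignments are not given in the sources used here. Symbols, positions and exon lengths came from GENCODE M21.

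Genes passing filterByExpr (15907) were tested with edgeR 4.0.16 (quasi-likelihood F test, TMM scaling, R 4.3.3) in 1 model of 11 libraries, with Benjamini-Hochberg adjustment over all genes tested and a threshold of 0.1, and SE as the absolute log2 fold change over the square root of F. CPM are TMM-scaled. Alternatives used DESeq2 1.42.0, limma 3.58.1 (voom), other scaling, filters, offsets, depths and thresholds, and left out libraries. Total counts were 10.2 to 23.6 M, and 3 counts cover counting error only, since amplified reads are not independent molecules. The members, lists, alternatives and naming rule were chosen with earlier results of these data known. Values per library are given for members past the threshold with an absolute log2 fold change of at least 1 and the most abundant member of each role. They are also given for those in described paralogue shares, apart from Syt1, Syt2, Cplx3 and the Unc13 genes. For these only a range or maximum is given. Snap25, Napb, Syt4, Cplx1, Rph3a and Rims4 were added after their values were seen. Of these, Cplx1 also met the rule as the most abundant complexin per kb, and Snap25 through its described paralogue share.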

Additional observations from a re-analysis of the deposited data

Results flagged for a closer look

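Of 98 sets of 4 values (49 members in dLG and in VPM), 8 held a library whose gap to the nearest of the others, divided by the range, was above the critical value of Dixon's test for 4 samples, and chance gives about 1 in 20. In VPM 3, which had 5 of the 8, Syt12 was 0.062 CPM against 0.346 to 0.38 CPM in the other VPM libraries, Syn2 was 21.3 CPM against 46.7 to 50 CPM, Sv2c was 3.47 CPM against 10.5 to 13 CPM and Bsn was 33.5 CPM against 44.1 to 45.4 CPM, all low, whereas Syt16 was high, at 223 CPM against 181 to 183 CPM. In dLG the values were high: Syn2 at 92.2 CPM in dLG 4 against 56.5 to 60.8 CPM, Rph3a at 62.7 CPM in dLG 3 against 47.8 to 49.6 CPM, and Rab3d at 30.5 CPM in dLG 2 against 20.5 to 21.3 CPM. In the same libraries, Hspa8 was low in VPM 3 and dLG 2, and haemoglobin genes summed to 512 CPM in dLG 3; their part was not tested.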

How the results depend on the processing

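No member's call changed direction in any alternative. Member calls between dLG and VPM (11), dLG and MGv (13), VPM and MGv (16) and among the nuclei (23) became 21, 16, 25 and 30 with limma voom and 14, 16, 18 and 27 with DESeq2, where all-gene calls in the 3 contrasts also rose, to 27.8%, 19.3% and 25.2% with voom and 14.9%, 19.6% and 23.6% with DESeq2, and became 4, 7 and 8 with an absolute log2 fold change over 1. At that fold-change limit, only 5.796%, 9.757% and 9.801% of all genes passed in the 3 contrasts. These shares also apply to the other genes' counts at that limit, given below. Without dLG 2, VPM 3 and MGv 1, 18 members passed between dLG and VPM, where 16.1% of all genes did. Leaving out 1 library gave 7 to 15 (lowest without VPM 1), 6 to 17 and 10 to 21 (lowest without MGv 3), and 17 to 28 calls. The all-gene shares in the 3 contrasts moved as well, over 6.95% to 14.1%, 11.4% to 20.9% and 12.2% to 20.4%. The other presynaptic genes (11, 15, 19 and 23) gave 17 between dLG and VPM with DESeq2, 29 there and 37 among the nuclei with voom, 20 between dLG and VPM without the 3 libraries, 7 there at an adjusted p under 0.05, and 5 and 9 for dLG against VPM and VPM against MGv with an absolute log2 fold change over 1; leaving out 1 library gave 5 to 17, 10 to 20, 10 to 21 and 15 to 31. At an adjusted p under 0.05, 7.38% of all genes passed between dLG and VPM. Of the 40 member calls, 7 were lost with total-count scaling, 6 with no count filter, 3 on thinning to the smallest total, 2 with GC and length offsets and 1 with DESeq2 size factors. The cause was not tested.

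With the replicate number as a block, members gave 10, 10, 13 and 18 calls, 7 of the 40 being lost, and the other genes 9, 14, 19 and 16. The all-gene share was also lower with the block, at 9.203%, 13.64% and 16.94% in the 3 contrasts. In the main fit it was 10.71%, 16.11% and 18.96%. Deviations of libraries with the same number correlated at a mean r of 0.02 over 10 pairs (-0.20 to 0.48). Those with other numbers correlated at -0.01 over 30 pairs (-0.31 to 0.27). The main fit does not take the numbers to pair the libraries. These values cannot decide it, because dLG 2, VPM 3 and MGv 1, of different numbers, correlated with each other (r = 0.23 to 0.27). MGv had 3 libraries and the lowest totals.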
